A study of Mus musculus with 8 samples.

Results

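DNA damage signalling and repair genes were followed in mouse kidneys taken whole at embryonic day 14.5, where kidneys lacking Mdm4 in 1 lineage were set against wild-type kidneys. They are 38 genes, taken by name and found on the array through the RefSeq accession of their probes. All 38 were found among 22911 named genes, on 67 probes, and all 38 were measured above background in every channel among the 16013 genes tested. In the mutant a Hoxb7Cre transgene removes Mdm4 in the lineage of the ureteric bud, which forms the collecting ducts, so that most kidney cells, in mesenchyme, nephrons and stroma, keep the gene. The control is labelled only as wild type, with no word on the transgene. Each of 4 wild-type RNAs was paired with 1 of 4 mutant RNAs, and each pair was hybridised on 2 arrays with the dyes exchanged, which gives n = 4 pairs. How many embryos gave each RNA is not stated, so p-values reflect only how far these 4 pairs differ, part of which may be technical. In RNA of a whole organ, fewer cells of a type and less RNA per cell cannot be told apart.

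Mdm4 encodes an inhibitor of the transcription factor p53. In the damage response the kinases ATM and ATR are activated at broken or stalled DNA, act through CHK2 and CHK1, and stabilise p53, while repair proteins gather at the lesion. Much of this machinery is controlled at the level of the protein, by phosphorylation and ubiquitin. Many of its genes are also transcribed with the cell cycle, under E2F factors, and a few, such as Polh, are known p53 targets. The comparison asks whether damage genes move with the p53 targets when Mdm4, rather than a damaging agent, is what differs between the groups.

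The sequences at the start sites are shown because they tell which of these genes carry letters resembling a binding site of p53 or E2F. RefSeq promoter windows of 300 bases (GRCm38.p6, from 250 bases before the start to 50 after it) were found for 31 of the 38 genes, as 34 windows. They were searched on both strands for the p53 half-site consensus, for the E2F words TTTCCCGC, TTTGGCGC, TTTCGCGC and TTTGCCGC, for CCAAT and for TTTGAA, the core of the cell cycle homology region. An E2F word stood in 8 of the 34 windows (23.5%), against 2.27% of all 32841 windows and 35% of those of S phase genes. A p53 half-site stood in 1 of the 34 (2.94%), against 8.36% of all windows and 22.7% of those of p53-activated targets. CCAAT stood in 55.9% against 37.4% of all windows, and TTTGAA in 5.88% against 17.9%, and against 78.4% of the windows of mitosis genes. A match is a description of letters and not a binding site, and the windows leave out more distant sequence.

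The stretches below carry the p53 half-site in capitals, first for 3 p53-activated targets and then for Fanca, the 1 damage gene with a match. Cdkn1a lies at chr17:29090886-29090957 on the plus strand, Ccng1 at chr11:40755442-40755491, Mdm2 at chr10:117710915-117710964 and Fanca at chr8:123318611-123318660, these last 3 on the minus strand.
Cdkn1a: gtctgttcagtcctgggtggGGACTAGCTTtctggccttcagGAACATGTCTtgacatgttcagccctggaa
Ccng1: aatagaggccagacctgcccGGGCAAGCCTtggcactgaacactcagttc
Mdm2: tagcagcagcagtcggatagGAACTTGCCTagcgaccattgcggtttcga
Fanca: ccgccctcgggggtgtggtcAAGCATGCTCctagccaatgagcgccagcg

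The next stretches carry the E2F word in capitals, read in gene orientation, in 5 of the 7 damage genes that have one. In the other two, Rad51c and Msh6, the word lies at or just past the start site. The 5 are Chek2 at chr5:110839811-110839858, Brca2 at chr5:150522433-150522480, Xrcc6 at chr15:82016303-82016350 and Mdc1 at chr17:35841462-35841497 on the plus strand, and Bard1 at chr1:71103154-71103201 on the minus strand.
Chek2: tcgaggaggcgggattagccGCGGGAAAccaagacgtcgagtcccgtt
Brca2: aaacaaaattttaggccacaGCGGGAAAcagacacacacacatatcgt
Xrcc6: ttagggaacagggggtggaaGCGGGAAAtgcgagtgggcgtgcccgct
Mdc1: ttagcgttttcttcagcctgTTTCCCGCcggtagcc
Bard1: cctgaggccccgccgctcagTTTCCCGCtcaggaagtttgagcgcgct

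Expression is given as the log2 ratio, mutant over wild type, averaged over the 2 arrays of a pair, and errors are standard errors of limma's fit over 4 pairs. The 38 damage genes lay close to 0. Their means ran from -0.16 for Ercc2 to 0.11 for Msh6, which is 0.893-fold to 1.08-fold, with 20 above 0 and 18 below (52.6% above, against 53.9% of all genes). The split depended on the scaling: arrays centred on their median in place of loess gave 36 above 0 and all genes a median of 0.14 instead of 0.01, and the damage genes stayed beside that median, at 0.15. None of the 38 passed limma at an adjusted p of 0.05 (smallest adjusted p = 0.467), where 0% of all genes did. At an unadjusted p under 0.05 there was 1 of 38 (2.63%), against 10.6% of all genes, and 0 of 38 means lay beyond 0.2 in either direction, against 11.9%. Of the 38 genes, 5 kept 1 sign through the 4 pairs (13.2%), against 19.9%. Every 95% interval of a damage gene lay between -0.36 and 0.32, or 0.780-fold and 1.25-fold, on the brightest probe of each gene. With the median over a gene's probes instead, the highest mean was 0.29, that of Rif1, whose probes differed.

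**Figure D1:**
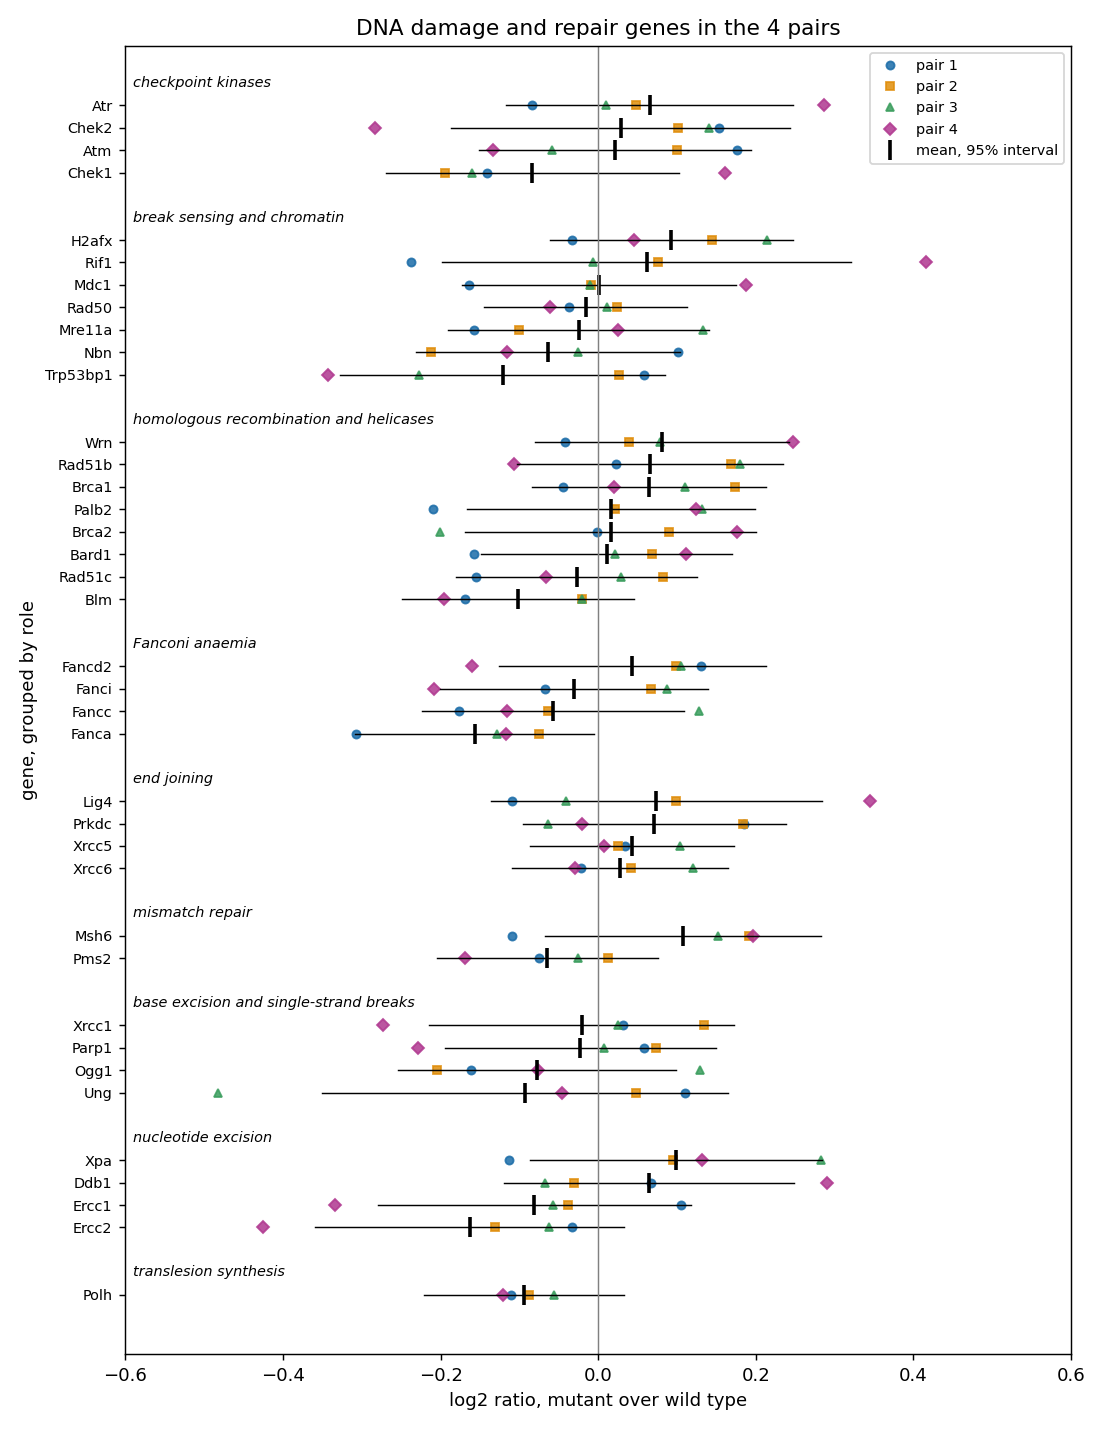
Log2 ratio of mutant over wild type (x axis) of the 38 damage and repair genes (y axis, grouped by role, H2afx being the older symbol of H2ax) in pairs 1 to 4 (coloured points), with the mean (tick) and its 95% interval from limma (line). The means lie between -0.16 and 0.11, and all intervals but that of Fanca reach across 0.

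Mdm4 itself was at -0.03, -0.06, -0.28 and -0.35 in pairs 1 to 4 on its brightest probe (mean -0.18 ± 0.07, limma adjusted p = 0.471), and between -0.18 and -0.098 over its 4 probes. On the brightest probe the mean was -0.00062 with the mutant in Cy5 and -0.36 with it in Cy3, so 1 orientation set the value. Where the probes lie against the deleted exons is not stated, and most cells keep the gene, so the values are no check of the genotypes. The arrays had 57.9% to 67.1% of spots well above background, and the number of arrays limits the precision (median standard error 0.07). Markers of kidney cell types were measured, with 10 of 10 ureteric tip genes, 11 of 11 of the trunk and collecting duct and 9 of 9 of nephron progenitors above background in all wild-type channels. The ureteric tip genes were below 0 in 10 of 10 (median -0.38) and those of the trunk in 11 of 11 (median -0.14), while 9 of 9 stromal genes (median 0.37), 6 of 6 podocyte genes (0.35), 6 of 6 proximal tubule genes (0.28) and 9 of 9 macrophage and leukocyte genes (0.27) were above 0, with 0 of these genes called after adjustment. The part of these differences in the damage gene values was not tested. The Y-linked gene Eif2s3y was at 3.91, 2.26, -2.02 and 4.09, so Y-linked signal differed within every pair, and in pair 3 the other way. With the Y-linked ratio as a covariate 0 damage genes were called, 11 of 38 signs turned, and the means ran from -0.24 to 0.18.

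The kinases that start and relay the signal showed no common direction. Atm, whose product is activated by double-strand breaks, was at 0.18, 0.10, -0.06 and -0.13 in pairs 1 to 4 (mean 0.02 ± 0.07, limma adjusted p = 0.928). Atr, whose product is activated by single-stranded DNA at stalled forks, was at -0.08, 0.05, 0.0095 and 0.29, with a mean of 0.07 ± 0.07. Both genes had pairs on either side of 0. Chek2, which relays the ATM signal, was at 0.15, 0.10 and 0.14 in pairs 1 to 3 but at -0.28 in pair 4, with a mean of 0.03 ± 0.09. Chek1, which relays the ATR signal, went the opposite way, at -0.14, -0.19 and -0.16 in pairs 1 to 3 and 0.16 in pair 4, with a mean of -0.08 ± 0.08. In both checkpoint kinase genes pair 4 stood apart from 3 pairs that lay close together, in opposite directions. A second probe of Chek1 had a mean of 0.18 ± 0.08, so the sign of Chek1 differed between its probes.

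Genes for sensing breaks and marking chromatin were as close to 0. H2ax, which encodes the histone variant phosphorylated around breaks, was the highest of these 7, at -0.03, 0.14, 0.21 and 0.05 (mean 0.09 ± 0.06, limma adjusted p = 0.617). Its normalised log2 signal was 15.68, 15.60, 15.48 and 15.64 in the wild-type RNAs and 15.65, 15.75, 15.69 and 15.69 in the mutant RNAs, with the highest wild-type value above the lowest mutant value. Trp53bp1, whose product 53BP1 binds p53 and steers breaks towards end joining, was the lowest, at 0.06, 0.03, -0.23 and -0.34 (mean -0.12 ± 0.085). The genes of the MRN complex, which binds broken ends, were at -0.02 ± 0.05 for Rad50, -0.02 ± 0.07 for Mre11a and -0.06 ± 0.07 for Nbn. The mean of Mdc1, the adaptor that reads phosphorylated H2AX, was 0.00073 ± 0.07.

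Rif1, which acts with 53BP1 to limit end resection, was the one gene of the 38 whose probes stood far apart. Its brightest probe was at -0.24, 0.08, -0.0065 and 0.42 in pairs 1 to 4 (mean 0.06 ± 0.11), on both sides of 0. Its other probe was at 0.40, 0.36, 0.37 and 0.95 (mean 0.52 ± 0.11) and above 0 on 8 of 8 arrays. In a limma fit over all 34592 kept probes the adjusted p of that second probe was 0.549, so it did not pass. Which transcripts each probe detects was not analysed here. The second probe was chosen for description after its values were seen. Over the 20 genes with more than 1 kept probe, probes of a gene differed in sign for 7, and the range between probes was 0.27 for Chek1, the widest after the 0.46 of Rif1.

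Homologous recombination copies the intact sister strand to mend a break. Brca1, which helps resect the ends, was at -0.04, 0.17, 0.11 and 0.02 (mean 0.06 ± 0.06), and its partner Bard1 had a mean of 0.01 ± 0.07. Brca2, which loads the recombinase, and Palb2, which links it to BRCA1, both had a mean of 0.02 ± 0.08. The recombinase paralogs Rad51b and Rad51c were at 0.07 ± 0.07 and -0.03 ± 0.06. The highest mean of these 8 genes was that of the helicase gene Wrn, at -0.04, 0.04, 0.08 and 0.25 (mean 0.08 ± 0.07), and the lowest that of the helicase gene Blm, at -0.17, -0.02, -0.02 and -0.20 (mean -0.10 ± 0.06, limma adjusted p = 0.574). Blm was below 0 in all 4 pairs, yet its sign turned with the dyes, with a mean of -0.53 where the mutant RNA carried Cy5 and 0.33 where it carried Cy3.

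The Fanconi anaemia proteins unhook cross-linked strands. Fanca, a subunit of the core ubiquitin ligase, was the only damage gene whose brightest probe had an unadjusted p under 0.05. Fanca also had it in 4 of 15 alternative settings. In the limma fit over all kept probes, dimmer probes of Rif1, Ercc2 (-0.23 ± 0.08) and Wrn (0.15 ± 0.06) had it too. Their adjusted p in that limma fit was 0.549, 0.569 and 0.583. The normalised log2 signal of Fanca was 11.64, 11.78, 11.82 and 11.88 in the wild-type RNAs and 11.33, 11.71, 11.69 and 11.76 in the mutant RNAs, and the groups overlapped. Within pairs the mutant was lower each time, at -0.31, -0.07, -0.13 and -0.12 (mean -0.16 ± 0.06, limma adjusted p = 0.467), and on 7 of 8 arrays. Its 3 probes had means from -0.19 to -0.13. A dimmer probe was at 0.02, -0.03, -0.28 and -0.47 in pairs 1 to 4, and the dimmest was below 0 in each. On the brightest probe both dye orientations gave a like value, -0.17 with the mutant in Cy5 and -0.15 with it in Cy3. Under median centring, which moved all genes upward, Fanca was at 0.01. Fancd2, which the core complex marks, was the highest of these 4, at 0.13, 0.10, 0.10 and -0.16 (mean 0.04 ± 0.07), and its partner Fanci and the core gene Fancc were at -0.03 ± 0.07 and -0.06 ± 0.07. The share of genes below 0 in all 4 pairs was 7.84%, and among the damage genes these were, on the brightest probes, Fanca, Ercc2, Blm and Polh, 4 of 38.

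Non-homologous end joining reseals ends without a template. All 4 of its genes had means above 0, from 0.03 ± 0.06 for Xrcc6 to 0.07 ± 0.09 for Lig4, each within about its own standard error of 0. Lig4, the ligase, was at -0.11, 0.10, -0.04 and 0.35, and Prkdc, the kinase DNA-PKcs, at 0.18, 0.18, -0.06 and -0.02. Both genes had pairs on either side of 0, as did Xrcc6, at -0.02, 0.04, 0.12 and -0.03. Xrcc5, which with Xrcc6 encodes the Ku ring that binds ends, was at 0.03, 0.03, 0.10 and 0.0073. On the brightest probes it was the one damage gene above 0 in all 4 pairs, where 12.1% of all genes were. Dimmer probes of Rif1, Palb2 and Wrn were above 0 in all 4 pairs too. Xrcc5 was at -0.069 with the mutant in Cy5 and 0.15 with it in Cy3, so 1 orientation set the sign over pairs.

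Mismatch repair corrects replication errors. Msh6, which recognises mismatches, had the highest mean of the 38 (-0.11, 0.19, 0.15 and 0.20 in pairs 1 to 4, mean 0.11 ± 0.07, limma adjusted p = 0.609), and Pms2, which nicks the strand, was at -0.08, 0.01, -0.03 and -0.17 (mean -0.06 ± 0.06). Base excision and single-strand break repair had 4 of 4 means below 0. Xrcc1, the scaffold, was at 0.03, 0.13, 0.02 and -0.27 (mean -0.02 ± 0.08), Parp1, which senses nicks, at -0.02 ± 0.07, and Ogg1, which removes oxidised guanine, at -0.08 ± 0.07. Ung, which removes uracil, was at 0.11, 0.05, -0.48 and -0.05 (mean -0.09 ± 0.11), and at 0.44 and -0.62 with the mutant in Cy5 and in Cy3.

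Nucleotide excision removes bulky lesions. Xpa, which checks the lesion, was the highest of these 4, at -0.11, 0.09, 0.28 and 0.13 (mean 0.10 ± 0.08), and Ddb1, part of an ultraviolet damage sensor, was at 0.06 ± 0.08. Ercc2, a helicase of the opening complex, had the lowest mean of the 38, at -0.03, -0.13, -0.06 and -0.43 (mean -0.16 ± 0.08, limma adjusted p = 0.526), and Ercc1, part of the nuclease that cuts, was at 0.11, -0.04, -0.06 and -0.33 (mean -0.08 ± 0.08). Pair 4 was the lowest for both. Polh encodes the polymerase that copies past ultraviolet lesions and is itself a known p53 target. On its brightest probe Polh was at -0.11, -0.09, -0.06 and -0.12 (mean -0.09 ± 0.05, limma adjusted p = 0.556). That was the smallest spread between pairs of the 38. The mean was, however, -0.29 with the mutant in Cy5 and 0.10 with it in Cy3. A dimmer probe of Polh was at 0.01, 0.0059, 0.0046 and -0.19 (mean -0.04 ± 0.06).

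Among known targets activated by p53, 31 of 56 lay above the highest damage gene in the same RNAs, 23 lay within the damage genes' own range and 2 below it. Their list was chosen with results of these arrays known, so it is not independent evidence of its direction. Of 56 measured targets 42 were above 0, with a median of 0.15, and 25 were above 0 in all 4 pairs, where 12.1% of all genes were. At an unadjusted p under 0.05 there were 23 higher and 1 lower (42.9% of the list), and after adjustment over all genes 0. Cdkn1a, the cell cycle inhibitor p21, was at 1.33, 0.44, 0.92 and 1.11 in pairs 1 to 4 (mean 0.95 ± 0.14, limma adjusted p = 0.232). The cyclin gene Ccng1, the stress cytokine gene Gdf15 and the receptor gene Eda2r had means of 1.04, 1.23 and 1.15. All 4 were above 0 on 8 of 8 arrays. Mdm2, whose window holds a half-site too, was at 0.03 ± 0.07, with 2 pairs above 0 and 2 below.

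The pairs in which p53 targets lay highest were not those in which damage genes did. The median of the targets was 0.18, 0.14, 0.12 and 0.21 in pairs 1 to 4, and that of the 38 damage genes was -0.04, 0.04, 0.01 and -0.05. The median of all genes in the same pairs was -0.01, -0.0026, 0.04 and 0.03. With 4 pairs no correlation between the lists was computed. Genes of S phase and mitosis were measured beside them, since many damage genes are transcribed in cycling cells. Their medians were -0.09, -0.01, 0.02 and -0.08 for 44 S phase genes and -0.11, -0.03, -0.02 and -0.15 for 42 mitosis genes. For the damage genes, as for both of these lists, the medians of pairs 1 and 4 were below those of pairs 2 and 3. The likeness holds for medians not taken relative to that of all genes, which was itself higher in pair 3 than in pair 1. In pairs 1, 3 and 4 the damage gene median was below that of all genes, and in pair 2 above it. The S phase and mitosis medians were below that of all genes in every pair. The likeness between the lists was not tested. Of the S phase list 31 genes were below 0 and of the mitosis list 32, with 1 and 4 lower at an unadjusted p under 0.05 (against 3.6% of all genes) and 0 adjusted. The lower values came mostly from 1 dye orientation. With the mutant in Cy5 and then in Cy3, the median was -0.075 and 0.0094 for S phase genes. For mitosis genes it was -0.10 and -0.01. In the S phase list Uhrf1 (-0.21 ± 0.06) and the clamp loader gene Rfc3 (-0.13 ± 0.06), and in the mitosis list the checkpoint gene Bub3 (-0.20 ± 0.05) and the cyclin gene Ccnb1 (-0.18 ± 0.06), had the smallest p. Any part of cell cycling in the damage gene values was not tested.

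**Figure D2:**
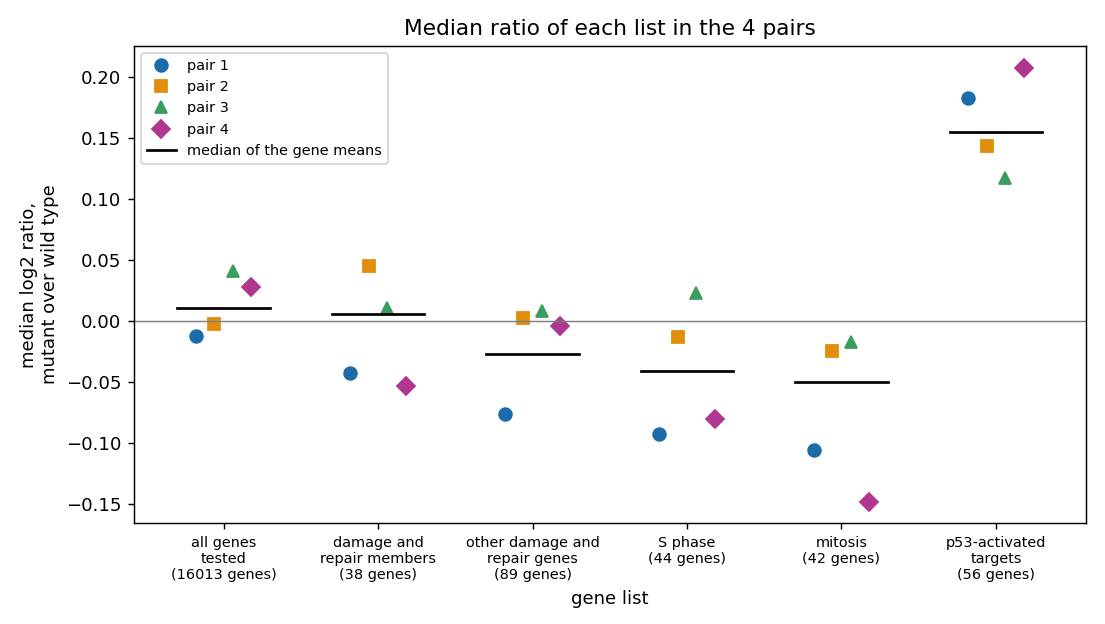
Median log2 ratio of mutant over wild type (y axis) of 6 gene lists (x axis) in pairs 1 to 4 (points), with the median of the genes' means over the pairs (line). The p53-activated targets lie at 0.12 to 0.21 in every pair, and the 38 damage genes at -0.05 to 0.04, around the median of all genes.

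The 7 damage genes with an E2F word in a promoter window had a median of 0.02, with means from -0.03 to 0.11, and the 24 with a window and no such word had a median of -0.03, with means from -0.16 to 0.10. The ranges overlapped. Of the genes shown with a p53 half-site, Fanca was at -0.16, Mdm2 at 0.03, Cdkn1a at 0.95 and Ccng1 at 1.04.

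Repair genes that are themselves known p53 targets were divided. Ddb2, Xpc, Rrm2b and Ercc5 had means within the range of the damage genes. Polk and Gadd45a lay above that range and above the median of the p53-activated targets (0.15). All 6 were below Cdkn1a (0.95). Ddb2 and Xpc, which recognise ultraviolet lesions, were at 0.04 ± 0.06 and -0.03 ± 0.05, and Rrm2b, a ribonucleotide reductase subunit for repair, was at -0.04 ± 0.07. Ercc5, an excision nuclease, was at 0.05 ± 0.07. The translesion polymerase gene Polk was at 0.19, 0.15, -0.04 and 0.67 (mean 0.25 ± 0.12), and Gadd45a at 0.05, -0.20, 0.47 and 0.40 (mean 0.18 ± 0.12). Polk and Gadd45a had pairs on both sides of 0, and 0 of these 6 genes had the same sign in all 4 pairs or an unadjusted p under 0.05.

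In a wider list of 89 other damage and repair genes, 35 were above 0 and 54 below, with a median of -0.03, and 0 passed after adjustment. At an unadjusted p under 0.05 there were 3 higher and 4 lower, against 7.01% and 3.6% of all genes. The higher ones were Mgmt, which reverses alkylated guanine, at 0.59, 0.28, 0.19 and 0.43 (mean 0.37 ± 0.08, limma adjusted p = 0.346), the translocase gene Fancm at 0.33 ± 0.10 and the ATR activator gene Etaa1 at 0.20 ± 0.05. Next came the polymerase gene Rev1 at 0.13 ± 0.06. Among the lower ones were Clspn, a CHK1 adaptor, at -0.27, -0.22, -0.07 and -0.86 (mean -0.35 ± 0.13), Wdr48 at -0.16 ± 0.07 and Aptx at -0.15 ± 0.06. Etaa1 and Fancm had the same sign on 8 of 8 arrays, and Clspn and Wdr48 on 5.

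**Figure D3:**
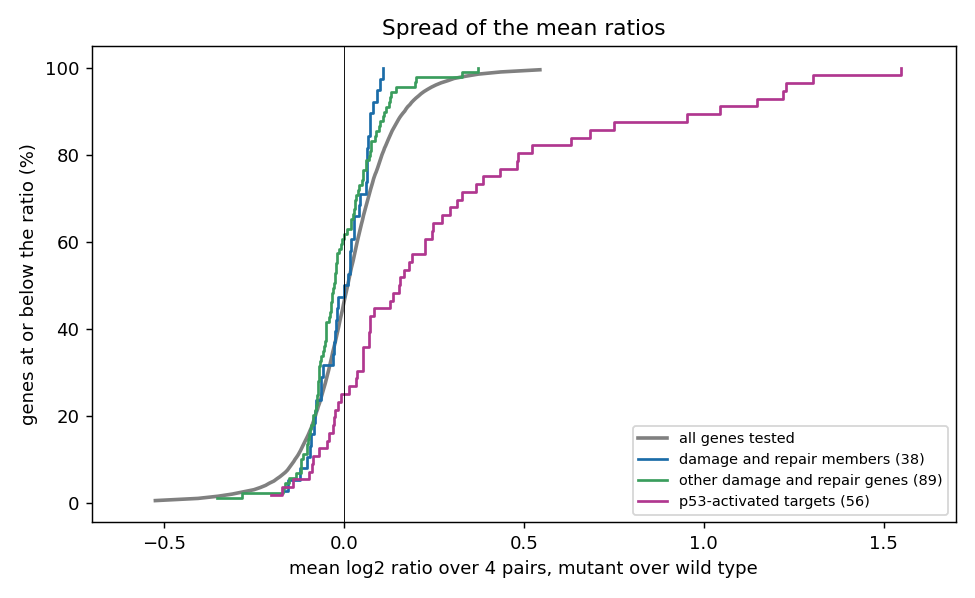
Percentage of genes (y axis) at or below a given mean log2 ratio of mutant over wild type (x axis), for all genes tested and for 3 lists. The curve of the 38 damage genes ends at 0.11. Of the 56 p53-activated targets 31 lie above that, up to 1.55, and 23 lie within the range of the damage genes.

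The 2 arrays of a pair hold the same RNAs with the dyes exchanged, so a difference between the RNAs should appear on both with the same sign. Across the 38 damage genes the ratios of the swapped arrays had Pearson's r of -0.20, -0.43, -0.34 and -0.12 in pairs 1 to 4, and the sign was shared by 21, 13, 13 and 21 genes. Across the 56 p53 targets r was 0.90, 0.78, 0.83 and 0.89, and across all genes 0.54, 0.23, 0.34 and 0.60. These are descriptions across genes, which are not independent replicates. The SD over damage genes of the dye part, which is the distance of either orientation from the mean of both, was 0.17, and that of the mean over pairs was 0.07. For the p53 targets the same values were 0.10 and 0.41. The dye part was thus the larger for the damage genes and the smaller for the targets. This was not particular to the damage genes. The dye part was also the larger for other damage and repair genes (0.12 against 0.11), S phase genes (0.11 against 0.08) and mitosis genes (0.11 against 0.07). Over all genes it was the smaller (0.13 against 0.15). On the brightest probes 0 of the 38 damage genes had the same sign on all 8 arrays, where 4.65% of all genes did. Dimmer probes of Rif1 and Wrn were above 0 on all 8 arrays. Each orientation filled its own row of the slide, so dye and row cannot be told apart. Among genes given in full above, the mean with the mutant in Cy5 and then in Cy3 was 0.14 and -0.099 for Atm, 0.16 and -0.32 for Chek1, -0.22 and 0.28 for Chek2, -0.056 and 0.24 for H2ax, -0.11 and 0.27 for Wrn and 0.31 and -0.11 for Xpa, each of opposite sign. It was 0.059 and 0.07 for Atr, -0.20 and -0.041 for Trp53bp1, 0.086 and 0.061 for Lig4, 0.03 and 0.19 for Msh6, -0.088 and -0.041 for Pms2 and -0.23 and -0.10 for Ercc2, each of 1 sign. It was 0.094 and -0.0070 for Fancd2, -0.11 and 0.16 for Xrcc6 and -0.19 and 0.15 for Xrcc1.

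**Figure D4:**
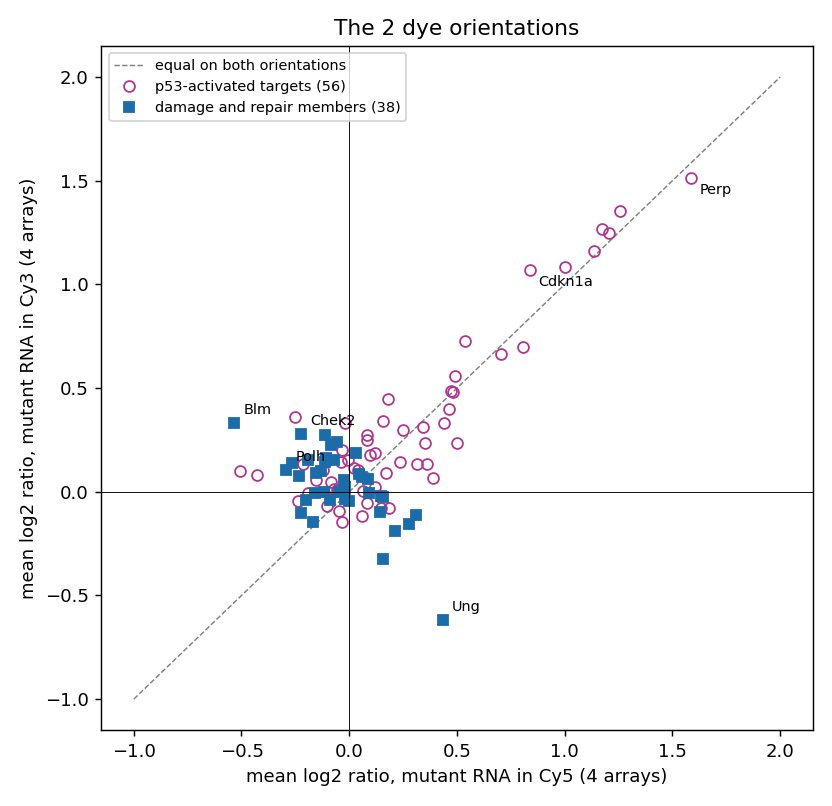
Mean log2 ratio of mutant over wild type over 4 arrays with the mutant in Cy5 (x axis) against that over 4 arrays with the mutant in Cy3 (y axis), for 38 damage genes (squares) and 56 p53-activated targets (circles). Targets such as Perp lie along the line of equal values, while the damage genes Blm (-0.53 and 0.33) and Ung (0.44 and -0.62) lie across it. Neither holds for every gene: the target Ercc5 (-0.25 and 0.36) lies away from the line and the damage gene Fanca (-0.17 and -0.15) close to it.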

How the data were processed

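Intensities of the spots and of their local background, as medians in both channels, came from the authors' scanner files, written by Agilent Feature Extraction 10.7.3.1 per the file headers (the submitters' processing notes name 8.5.1.1). The values deposited in the series table were log10 ratios, red over green and not turned for the swap, within 0.00500 of those in the scanner files. With limma 3.58.1 in R 4.3.3, signals were corrected by normexp (offset 50) and loess, with 3671 control and 95 to 156 outlier spots per array left out. Ratios were turned to mutant over wild type and averaged per pair. A probe was kept when well above background in at least 6 of 8 channels of a genotype (34592 of 56605). A gene was its brightest kept probe, named through RefSeq (GRCm38.p6). lmFit and eBayes tested 16013 genes, two-sided, adjusted by Benjamini-Hochberg, at 0.05. The fit was also run on data simulated from its own variance model, with added differences larger than the damage gene means. It was no check on differences as small as theirs. Signals per RNA were taken after loess and Aquantile and set no gene against another.

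The members and lists were chosen with earlier results of these data known. Values were given in full for members with an unadjusted p under 0.05 and 1 sign in all pairs, for the highest and lowest of each role, and for Atm, Chek1, Chek2, H2ax and Polh. From the other lists came up to 4 other damage genes per direction and 2 S phase and 2 mitosis genes by smallest p, 5 p53 targets and 6 repair genes among the p53 targets; 1 gene that this rule names is not reported here. All 8 arrays lay on 1 slide, so slide was not a batch. The alternatives were other normalisations, filters and probe rules, the deposited ratios, single orientations, a replicate block, each pair left out, centred pairs and a Y-linked covariate. A pair number marks the same RNAs on swapped arrays, per the labels, and the pair was therefore the unit.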

Additional observations from a re-analysis of the deposited data

Results flagged for a closer look

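Among the 38 damage genes, 4 had a pair far from the other 3, past Dixon's 95% critical value for 4 samples. Chance flags about 1 in 20 groups. They were Chek1 in pair 4 (0.16), Chek2 in pair 4 (-0.28), Fancd2 in pair 4 (-0.16) and Msh6 in pair 1 (-0.11).

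In 4 genes every array of one dye orientation lay on one side of 0 and every array of the other on the opposite side, as in 7.65% of all genes, and the difference was not tested. With mutant RNA in Cy5 and in Cy3, Chek2 was at -0.22 and 0.28, Blm at -0.53 and 0.33, Xrcc5 at -0.069 and 0.15, and Ung at 0.44 and -0.62.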

How the results depend on the processing

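Under 15 alternatives limma called 0 of the 38 damage genes each time, and the smallest adjusted p of any was 0.0818, for Ung with the mutant in Cy3 alone. Under median centring, without loess, 42 of all genes were called, 36 damage genes lay above 0 (94.7%, against 81.8% of all genes), the damage gene median was 0.15 where that of all genes was 0.14, and the p53-activated targets were at 0.32. In a fit of the 8 single arrays with a dye term and the pairing as a replicate block, 39 of all genes were called, 38 of them higher (its ratios equal the pair means by construction). The damage gene median was -0.062 with the mutant in Cy5 alone, where that of all genes was 0.0053, and 0.04 with it in Cy3 alone, where that of all genes was 0.03. With the Y-linked ratio as a covariate the p53 targets were at 0.10. With 1 pair left out the damage gene median ran from -0.01 to 0.01 and the p53 median from 0.12 to 0.18. No single damage gene was called, and of 38 only Rad51b and Msh6 kept 1 sign in all 15 alternatives; 16 signs turned under median centring, 12 and 15 with the mutant in Cy5 or Cy3 alone, 12 without pair 4, 11 with the covariate, and Fanca ran from -0.20 to 0.01. The causes were not tested.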
